A study of Oryzias latipes with 24 samples.

Results

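The genes crybb1 (IGDB12953), cryba4 (IGDB12954) and cryba2 (IGDB19494) encode lens crystallins of the medaka, Oryzias latipes, and were chosen by name as 3 of the 26549 genes of the expression table. Their levels were followed in 22 whole-embryo RNA-seq libraries of 11 stages, with 2 libraries at each of stages 6, 11, 15, 19, 25, 29, 32, 36, 38, 40 and 41. Stage 6 lies in cleavage, and the study counts stage 41 as larval. In all, 20 libraries were labelled Hd-rR, an inbred medaka strain, and replicate 2 of stages 40 and 41 was labelled d-rR / Qurt, so that strain and replicate cannot be told apart there. No treatment was applied. Besides Hd-rR, the study's methods name Qurt and the transgenic strain d-rR-Tg (olvas-GFP). Whether the libraries labelled d-rR / Qurt carry this transgene is not known here. Each library was made from many embryos, as the study's methods describe, and nothing in the labels says that the libraries of a stage came from separate clutches. Values are TPM, a transcript abundance unit which are scaled for transcript length and for the library total and therefore keep no read depth.

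Crystallins are the abundant soluble proteins of the vertebrate lens, where they pack densely in elongated fibre cells and give the tissue its transparency and refractive power. The crybb1 product is a basic and the cryba4 and cryba2 products are acidic members of the beta family, whose proteins are built from Greek key folds and assemble into dimers and larger complexes. Beta-crystallins are known as products of differentiating fibre cells, whereas the alpha-crystallin cryaa, a small heat shock protein, is a chaperone of the lens. In mammals, mutations of these genes are known from inherited cataract.

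In the authors' gene models, crybb1 lies on chromosome 12 from 2101288 to 2104476 on the minus strand, with 6 exons in each of 2 transcripts. These transcripts, of 960 and 801 bases, share their first 4 exons and differ in exon 5, with 143 and 57 bases, and in exon 6, with 373 and 300 bases. The cryba4 gene lies on the same chromosome from 2112578 to 2114140 on the plus strand, with 6 exons and 831 bases of transcript. The pair is thus transcribed in opposite directions from starts that face each other, with 8101 bases and no other gene model between them. The cryba2 gene lies on chromosome 21 from 30534096 to 30536358 on the minus strand, with 5 exons and 832 bases of transcript. Exon lengths were partly shared among the models. The last exon but 1 had 143 bases in cryba4, in cryba2 and in the longer crybb1 transcript, the exon before it had 142 bases in both acidic genes, and exon 3 had 119 bases in both crybb1 and cryba4. The symbols were taken from RefSeq genes, whose spans overlapped these models with Jaccard indices of 0.975 for crybb1, 0.981 for cryba4 and 0.918 for cryba2.

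**Figure D1:**
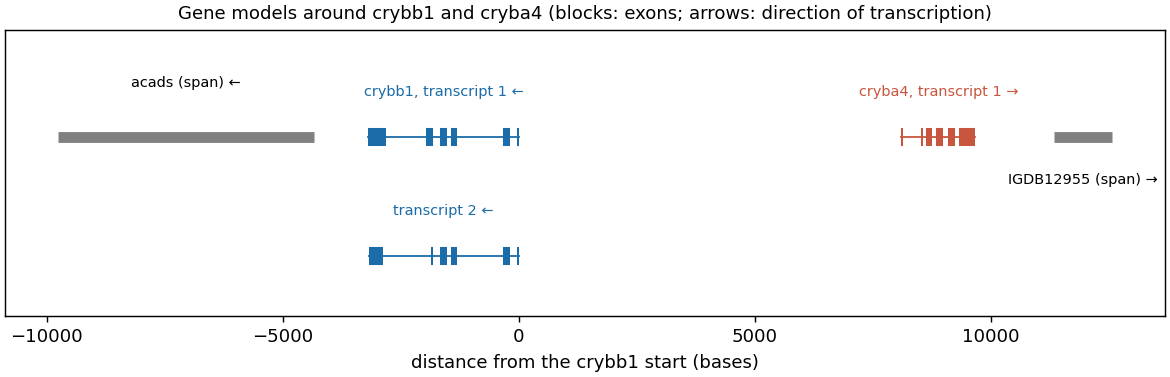
Gene models around crybb1 and cryba4, drawn by distance in bases from the crybb1 start, with blocks for exons, thin lines for introns, grey bars for the spans of the flanking models and arrows for the direction of transcription. The starts of the crystallin genes face each other across 8101 bases, and the shorter crybb1 transcript differs in exons 5 and 6.

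The 3 genes were near 0 in the early embryo, rose together between stages 19 and 29, were highest between stages 36 and 40 and fell in the larva. At stage 25 the libraries held 159 and 147 TPM of crybb1, 125 and 123 TPM of cryba4 and 54.6 and 46.2 TPM of cryba2. At stage 36 they held 1816 and 1840 TPM of crybb1, 2025 and 1711 TPM of cryba4 and 738 and 699 TPM of cryba2. All 3 transcripts together then made up 0.459% and 0.425% of all TPM of these libraries, and the stage means of cryba4 and crybb1 ranked 89th and 91st among all genes of the table. In whole embryos, a change in the number of lens cells and a change in RNA per cell cannot be told apart. TPM are shares of a library, so a change in the RNA of other tissues cannot be told apart from these either.

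**Figure D2:**
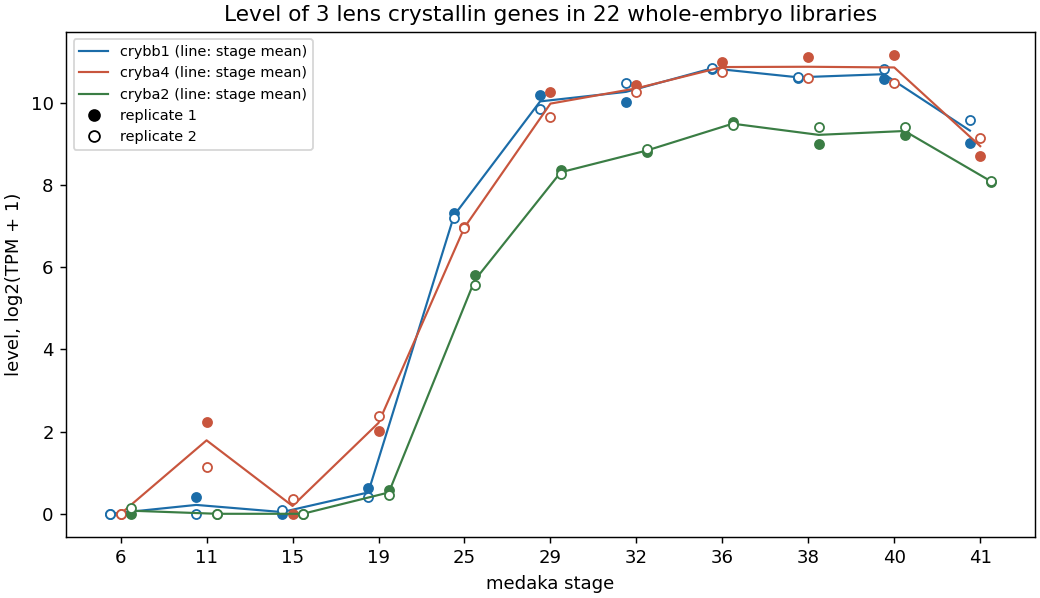
Levels of crybb1, cryba4 and cryba2 as log2(TPM + 1) by stage, with filled points for replicate 1, open points for replicate 2 and lines through the stage means. Up to stage 15 the genes lie near 0, apart from cryba4 at stage 11, with 3.72 and 1.19 TPM. All 3 genes then climb steeply to stage 29, stay high from stage 36 to stage 40 and are lower at stage 41. From stage 25 on, cryba2 lies below the other genes.

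Before stage 25 the values were close to the lower end of the table. The basic crystallin crybb1 was listed at 0 in both libraries of stage 6, at 0.323 and 0 TPM at stage 11, at 0 and 0.0590 TPM at stage 15 and at 0.534 and 0.332 TPM at stage 19. The acidic crystallin cryba2 was listed at 0 and 0.107 TPM at stage 6, at 0 in all 4 libraries of stages 11 and 15 and at 0.50 and 0.366 TPM at stage 19. Neither gene was therefore above 1 TPM in any library up to stage 19. The cryba4 gene differed: it was listed at 0 in both libraries of stage 6, at 3.72 and 1.19 TPM at stage 11, at 0 and 0.283 TPM at stage 15 and at 3.01 and 4.24 TPM at stage 19. Its libraries at stages 11 and 19 overlapped each other and lay above those of stages 6 and 15.

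Changes were tested with limma on log2(TPM + 1), and a gene was called where its adjusted p was under 0.05 and its log2 change at least 1. Since 1 TPM is added, changes of such low values are understated on this scale. At these early steps the calls were all of cryba4. Its log2 change was 1.68 (SE 0.36, adjusted p = 0.00376) at stage 11 against stage 6, where 7.65% of the 21179 genes tested were called higher. At stage 15 against stage 11 its log2 change was -1.50 (SE 0.36, adjusted p = 0.00270), at a step where 20.1% of the genes were called lower. Without replicate 1 of stage 11 neither step was called, with adjusted p of 0.122 and 0.0554. At stage 19 against stage 15 cryba4 rose by a log2 change of 2.02 (SE 0.36, adjusted p = 5.87e-04), at a step where 9.85% of the genes were called higher and 8.02% lower. The changes of crybb1, 0.47 with an adjusted p of 0.251, and of cryba2, 0.52 with an adjusted p of 0.137, were not called at that step, although the libraries of stage 19 lay above those of stage 15 for both genes. With a pseudocount of 0.1 TPM in place of 1 TPM, both were called there.

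At stage 25 against stage 19, all 3 genes were called higher, at a step where 7.18% of the 21179 genes were called higher and 1.79% lower. The largest change was that of crybb1, which had 159 and 147 TPM at stage 25 against 0.534 and 0.332 TPM at stage 19. Its log2 change of 6.75 (SE 0.27, adjusted p = 1.39e-10) was the 7th largest of all genes tested. The cryba4 gene had 125 and 123 TPM at stage 25 against 3.01 and 4.24 TPM at stage 19, a ratio of stage means of 34.2 and a log2 change of 4.77 (SE 0.36, adjusted p = 1.56e-07). The cryba2 gene had 54.6 and 46.2 TPM at stage 25 against 0.50 and 0.366 TPM at stage 19, a log2 change of 5.16 (SE 0.23, adjusted p = 4.10e-10). The ranks of the cryba2 and cryba4 changes were 22 and 33. For each gene the lower library of stage 25 exceeded the higher library of stage 19 many times over.

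The rise went on at stage 29 against stage 25, again with all 3 genes called higher, at a step where 7.22% of all genes were called higher and 1.04% lower. The basic crystallin crybb1 had 1168 and 924 TPM at stage 29 against 159 and 147 TPM at stage 25, a ratio of means of 6.86 and a log2 change of 2.76 (SE 0.27, adjusted p = 5.47e-06). Its neighbour cryba4 had 1218 and 797 TPM at stage 29 against 125 and 123 TPM at stage 25, a ratio of means of 8.12 and a log2 change of 2.98 (SE 0.36, adjusted p = 4.29e-05). On chromosome 21, cryba2 had 326 and 306 TPM at stage 29 against 54.6 and 46.2 TPM at stage 25, a ratio of means of 6.27 and a log2 change of 2.63 (SE 0.23, adjusted p = 2.57e-06). The ratios of means were thus of a similar size in the 3 genes, and the differences between the genes' changes were not tested.

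**Figure D3:**
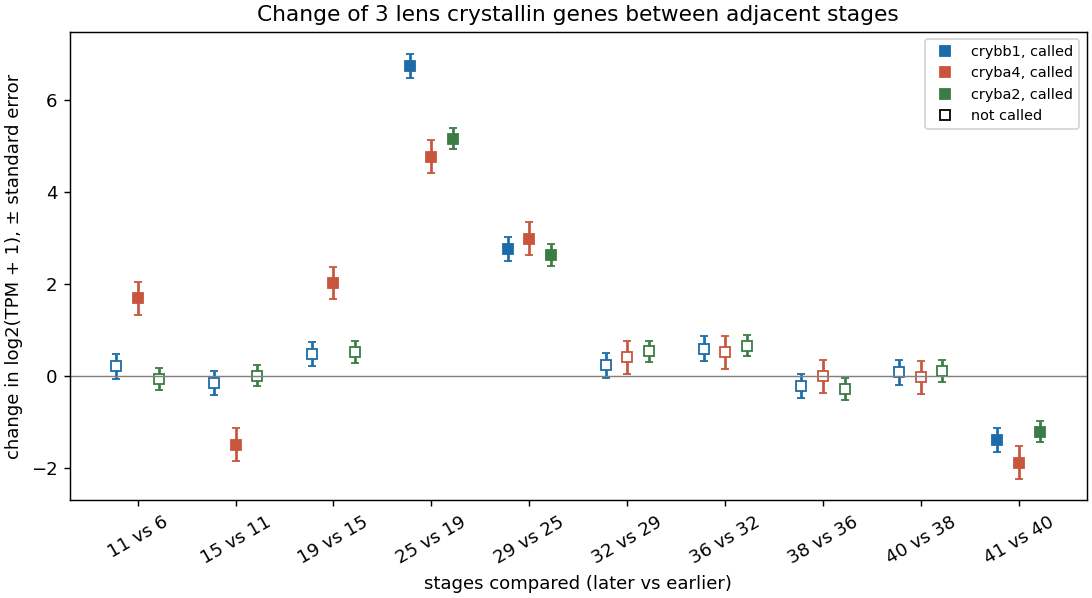
Change in log2(TPM + 1) of crybb1, cryba4 and cryba2 at the 10 steps between adjacent stages, later against earlier, with bars of 1 standard error from limma; filled squares were called and open squares were not. All 3 genes were called higher at stages 25 against 19 and 29 against 25 and lower at stage 41 against 40, while cryba4 alone was called at the 3 earliest steps.

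From stage 29 to stage 36 the levels still increased, but no single step was called. At stage 32 against stage 29 the log2 changes were 0.22 for crybb1, 0.40 for cryba4 and 0.53 for cryba2, and 1 of the 3 genes, cryba2, had an unadjusted limma p under 0.05, with an adjusted p of 0.575. This was a quiet step for the table as a whole, with 0% of all genes called higher and 0.00472% called lower. At stage 36 against stage 32 the log2 changes were 0.59 for crybb1, 0.52 for cryba4 and 0.65 for cryba2, with adjusted p of 0.280, 0.620 and 0.138. Unadjusted limma p were under 0.05 for 2 of the 3 genes, crybb1 and cryba2, and 4.12% of all genes were called higher. For all 3 genes both libraries of stage 36 nevertheless lay above both of stage 32. The cryba2 values show this most closely, with 738 and 699 TPM at stage 36 against 443 and 470 TPM at stage 32.

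Between stages 36 and 40 the levels stayed high. The crybb1 means of 1828 ± 16.9, 1571 ± 9.51 and 1656 ± 194 TPM at stages 36, 38 and 40 (SD, n = 2 each) differed by log2 changes of -0.22 and 0.071 at the 2 steps. The corresponding cryba4 means were 1868 ± 221, 1877 ± 472 and 1855 ± 604 TPM, so that its order over these stages was not resolved: the libraries of each stage overlapped those of the others. The cryba2 means were 718 ± 27.6, 595 ± 125 and 635 ± 63.8 TPM. None of the genes was called at stage 38 against stage 36 or at stage 40 against stage 38 by limma, and 0 of the 3 had an unadjusted p under 0.05 at either step. At these steps 3.08% and 0.302% of all genes were called higher, and 1.33% and 0.0331% lower. With TPM as deposited, both libraries of stage 38 nevertheless lay below both of stage 36 for crybb1 and cryba2. The direction at stage 38 against stage 36 was negative for all 3 genes with TPM as deposited and positive for all 3 after median-of-ratios scaling. No direction is therefore concluded for this step.

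At stage 41 against stage 40 all 3 genes were called lower, at a step where 9.71% of the genes tested were called lower and 5.22% higher. The crybb1 gene had 514 and 764 TPM at stage 41 against 1519 and 1793 TPM at stage 40, a ratio of means of 0.386 and a log2 change of -1.40 (SE 0.27, adjusted p = 0.00141). The cryba4 gene had 419 and 564 TPM at stage 41 against 2282 and 1428 TPM at stage 40, a ratio of means of 0.265 and a log2 change of -1.89 (SE 0.36, adjusted p = 0.00135). The cryba2 gene had 270 and 274 TPM at stage 41 against 590 and 680 TPM at stage 40, a ratio of means of 0.429 and a log2 change of -1.22 (SE 0.23, adjusted p = 0.00144). The libraries of the 2 stages were separate for every one of the genes, and the difference in the size of the fall between genes was not tested.

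The median log2 change of all genes tested was -0.22 at this step with TPM as deposited, and -0.018 after median-of-ratios scaling. Relative to the median of -0.22 the changes were -1.17 for crybb1, -1.67 for cryba4 and -0.99 for cryba2. The cryba2 call ended where the smallest change of 1 was no longer met, with a log2 change of -0.97 after either median-of-ratios scaling or quantile normalization. Without the libraries labelled d-rR / Qurt, the cryba2 change was -1.13 with an adjusted p of 0.0762, and with a pseudocount of 0.1 TPM the crybb1 change of -1.40 had an adjusted p of 0.0624. The cryba4 call was kept under all 14 alternatives.

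Despite the fall, the level of each transcript in TPM was higher in the larva than in the stage 25 embryo. Amounts per animal were not measured. The log2 changes at stage 41 against stage 25 were 2.03 (adjusted p = 7.63e-06) for crybb1, 1.96 (adjusted p = 2.26e-04) for cryba4 and 2.41 (adjusted p = 2.16e-07) for cryba2, at a comparison in which 24% of all genes were called higher and 20.8% lower. At stage 40 against stage 25 they were 3.43 (adjusted p = 2.53e-08), 3.85 (adjusted p = 1.77e-07) and 3.63 (adjusted p = 3.31e-09) in the same order, where 26.6% of all genes were called higher and 15.7% lower. The larval means corresponded to 35% of the highest stage mean for crybb1, 26.2% for cryba4 and 37.9% for cryba2.

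Ordered by the means of TPM as deposited, the stages fell into a similar sequence for the 3 genes. The order of stages 36 and 38 depends on the scaling, since the log2 change between them turned positive after median-of-ratios scaling. For crybb1 stage 36 was highest, followed by stages 40, 38, 32, 29, 41 and 25, and neighbouring libraries overlapped for stages 40 and 38 and for stages 32 and 29. For cryba2 the sequence was the same, with an overlap between stages 40 and 38 alone among these 7 stages. For cryba4 stages 38, 36 and 40 overlapped and were followed by stages 32, 29, 41 and 25, with no overlap. All 3 genes first passed 10% of their highest stage mean at stage 29 and 90% at stage 36. Half-way levels, taken as 50% of the highest stage mean, were first passed at stage 29 by crybb1 and cryba4 and at stage 32 by cryba2, which stood at 44% at stage 29. Of the 16005 genes with a stage mean of 10 TPM or more, 5.66% first passed this level at stage 29 and 4.35% at stage 32. In replicate 2 alone, cryba4 passed it at stage 32.

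The libraries of a stage differed to unequal degrees among the genes. From stage 25 on, the higher library of a stage exceeded the lower by a factor of 1.02 to 1.60 for cryba4, with a median of 1.35 over the 7 stages. The factor was 1.01 to 1.49 for crybb1, with a median of 1.18, and 1.02 to 1.35 for cryba2, with a median of 1.07. The widest gap was that of cryba4 at stage 40, with 2282 TPM in the Hd-rR library and 1428 TPM in the d-rR / Qurt library. At stage 38, where both libraries were Hd-rR, cryba4 also differed, with 2211 and 1544 TPM.

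Ratios within a library do not depend on the library total, and they separated the replicates for the chromosome 12 pair. The ratio of cryba4 to crybb1 in replicate 1 was 0.790, 1.04, 1.33, 1.11, 1.41, 1.5 and 0.814 at stages 25, 29, 32, 36, 38, 40 and 41. In replicate 2 it was 0.838, 0.863, 0.863, 0.930, 0.979, 0.796 and 0.738 at the same stages. In replicate 1 cryba4 was thus the more abundant transcript from stage 29 to stage 40, whereas in replicate 2 crybb1 was the more abundant at all 7 stages. The ratio was higher in replicate 1 at 6 of 7 stages, stage 25 being the exception, and 4 of those 6 stages had both libraries from Hd-rR. Which of the pair was more abundant was therefore not resolved by 2 libraries per stage from stage 29 to stage 40. At stages 25 and 41 crybb1 was the more abundant in both libraries. The ratios were not tested between stages.

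The cryba2 transcript was the least abundant of the 3 in all 14 libraries from stage 25 on. Its ratio to crybb1 was 0.279 to 0.525, with a median of 0.369, and its ratio to cryba4 was 0.229 to 0.644, with a median of 0.383. The highest of these ratios were both from replicate 1 of stage 41, at 0.525 to crybb1 and 0.644 to cryba4.

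**Figure D4:**
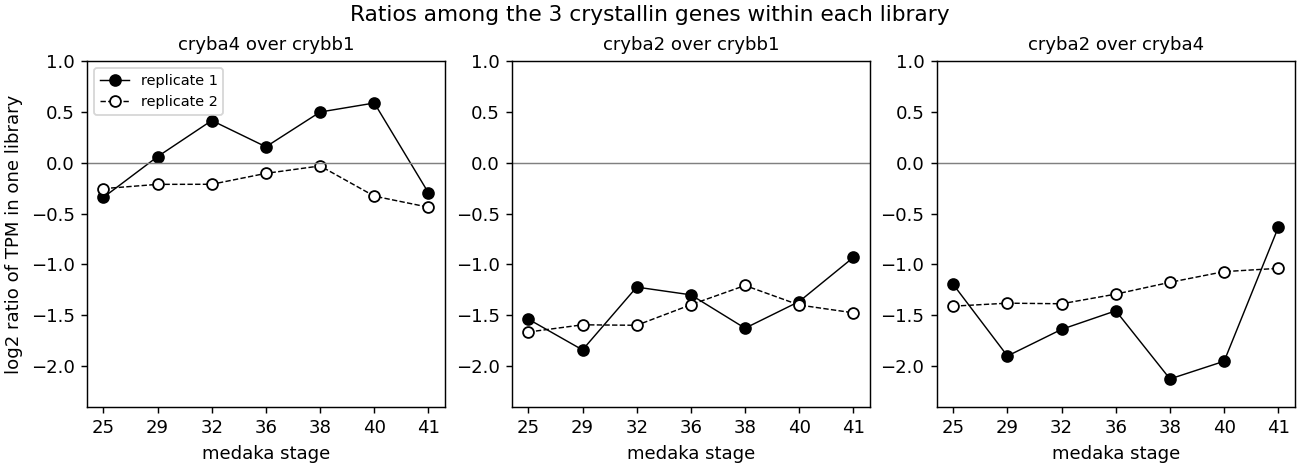
Log2 ratio of the TPM of 2 crystallin genes within a library, by stage from 25 to 41, with filled points for replicate 1 and open points for replicate 2; 0 marks equal levels. The ratio of cryba4 to crybb1 lies above 0 in replicate 1 from stage 29 to stage 40 and below 0 at every stage in replicate 2, while cryba2 lies below both other genes throughout.

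The gene models beside the crystallins differed in level and, for most, in profile. Next to crybb1 on the same strand, with 1147 bases between them, lies acads (IGDB12952), which encodes a mitochondrial dehydrogenase of fatty acid oxidation and was measured at 9.82 to 46.7 TPM over the 22 libraries, with a median of 23.8 TPM. Beyond cryba4, after 1668 bases, the model IGDB12955 had 6.48 to 55.3 TPM and was highest at stage 6. At stage 25 against stage 19 the log2 changes were 0.47 (adjusted p = 0.701) for acads and 0.64 (adjusted p = 0.526) for IGDB12955, against 6.75 and 4.77 for the crystallin genes between them. On the far side of acads, IGDB12951 (LOC101166566) was called higher at that step, with a log2 change of 2.27 (adjusted p = 9.55e-04), and was highest at stage 41, where it had 41.7 and 42.8 TPM. Its Pearson r with crybb1 on log2(TPM + 1) over the 22 libraries was 0.856. Next beyond IGDB12955, IGDB12956 had 18.0 to 104 TPM and was highest at stage 6.

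Around cryba2, umps (IGDB19495), which encodes an enzyme of pyrimidine synthesis, lies 10109 bases away and had 9.64 to 81.9 TPM, with the highest mean at stage 25. Its log2 change at stage 25 against stage 19 was 0.44 (adjusted p = 0.679). On the other side, IGDB06086 (LOC111946795) followed cryba2 in shape at a far lower level, with a Pearson r of 0.885 over the 22 libraries. It had 0.428 and 0.466 TPM at stage 25, at most 3.09 TPM, reached at stage 38, and 1.06 and 0.408 TPM at stage 41. The next model, IGDB19493 (LOC101159571), was highest at stage 11, with 118 and 38 TPM. The model IGDB19496, which lies within the span of umps on the opposite strand, did not exceed 0.112 TPM and was not tested. None of these 3 tested neighbours of cryba2 was called at stage 25 against stage 19.

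Among all genes with a RefSeq symbol and a stage mean of 10 TPM or more, the profile most like that of crybb1 over the 22 libraries was that of cryba2, with a Pearson r of 0.998 on log2(TPM + 1), although these genes lie on different chromosomes. The r between the neighbours crybb1 and cryba4 was 0.991, and that between cryba4 and cryba2 was 0.990. Such values are a description: the 22 libraries are 11 pairs of the same stages, and 2.04% of the 16004 genes compared had an r of 0.95 or more with crybb1, 2.35% with cryba4 and 2.46% with cryba2.

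Among genes with a RefSeq symbol other than a LOC number, most of the others with the most similar profiles are known from other tissues. For crybb1 they were chrnd (0.996), a subunit of the muscle acetylcholine receptor, wfdc1 (0.993), rhag (0.992), a membrane protein of red blood cells, and cacng1 (0.992), a subunit of the skeletal muscle calcium channel. For cryba2 they were crybb1, chrnd (0.997), cacng1 (0.994), cav3 (0.991), the caveolin of muscle, and cryba4. For cryba4 they were crybb1, cryba2, rhag (0.989), chrnd (0.988) and nrn1 (0.986), which encodes a neuronal surface protein. Their levels were far lower, with highest stage means of 26.5 TPM for chrnd and 134 TPM for rhag. By Spearman's rho, 1 of these 5 genes was again among the 5 most similar for crybb1, 2 for cryba4 and 1 for cryba2. Of the 16004 genes compared, 7875 had such a symbol, and the rest were left out of these lists. Ranked by r among all 16004 genes, crybb1 was at position 3 for cryba4, and cryba4 was at position 13 for cryba2. The tissues of the genes left out are not known here.

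The other lens genes were taken from lists of crystallins, lens fibre genes, regulators and retinal genes. Of the 12 crystallin symbols listed, cryaa was the only one matched to a gene model besides the 3 described here. The match was by symbol and left out models with a LOC number, under which other crystallins may be present. The remaining crystallins were therefore not analysed here. The alpha-crystallin cryaa had 39.7 and 39.4 TPM at stage 25 against 1.03 and 1.62 TPM at stage 19, a log2 change of 4.14 (SE 0.33, adjusted p = 2.65e-07). At stage 29 against stage 25 it was called higher again, by 1.65 (SE 0.33, adjusted p = 0.00292), with 150 and 106 TPM at stage 29. Its highest mean came earlier than those of the beta-crystallins, with 130 ± 33.4 TPM (SD, n = 2) at stage 32 and 87.6 ± 20.2 TPM at stage 36. The step between these stages was not called, with a log2 change of -0.55. Replicate 1 had 153 TPM at stage 32 and 73.3 TPM at stage 36, whereas replicate 2 had 106 and 102 TPM. The earlier peak of cryaa was therefore not resolved. At stage 41 against stage 40 its log2 change was -0.56 (adjusted p = 0.294), and whether this differs from the changes of the beta-crystallins was not tested.

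Of 14 symbols of lens fibre genes, 6 were matched and tested. At stage 25 against stage 19, lctl rose, by a log2 change of 1.45 (adjusted p = 0.0126), and none fell, with a median log2 change of 0.51 against 0.15 for all genes, of which 7.18% were called higher. At stage 29 against stage 25, 4 rose and none fell, with a median of 2.20 against 0.081 for all genes, of which 7.22% were called higher. At stage 41 against stage 40, 4 fell and none rose, with a median of -1.24 against -0.22 for all genes, of which 9.71% were called lower. The members did not share 1 profile, since tdrd7 and birc7 were highest at stages 11 and 6.

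The genes of the beaded filament proteins, which form the cytoskeleton of fibre cells, were first called higher at stage 29 against stage 25. The bfsp1 gene had 9.96 and 14.9 TPM at stage 29 against 1.49 and 0.592 TPM at stage 25, a log2 change of 2.73 (adjusted p = 3.95e-05), whereas its change at stage 25 against stage 19 was 0.99 (adjusted p = 0.0665). The partner gene bfsp2 had 11.1 and 25.1 TPM at stage 29 against 0.560 and 0.783 TPM at stage 25, a log2 change of 3.41 (adjusted p = 2.43e-04). Both were highest at stage 40, where bfsp1 had 118 and 87.9 TPM and bfsp2 had 66.8 and 103 TPM. At stage 41 against stage 40 both were called lower, bfsp1 with a log2 change of -1.43 (adjusted p = 0.00514) and bfsp2 with -1.88 (adjusted p = 0.0130). The fibre gene of the third highest level, tdrd7, which encodes a protein of RNA granules, had 47 to 68 TPM at stages 6 and 11 and at most 9.53 TPM from stage 25 on.

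**Figure D5:**
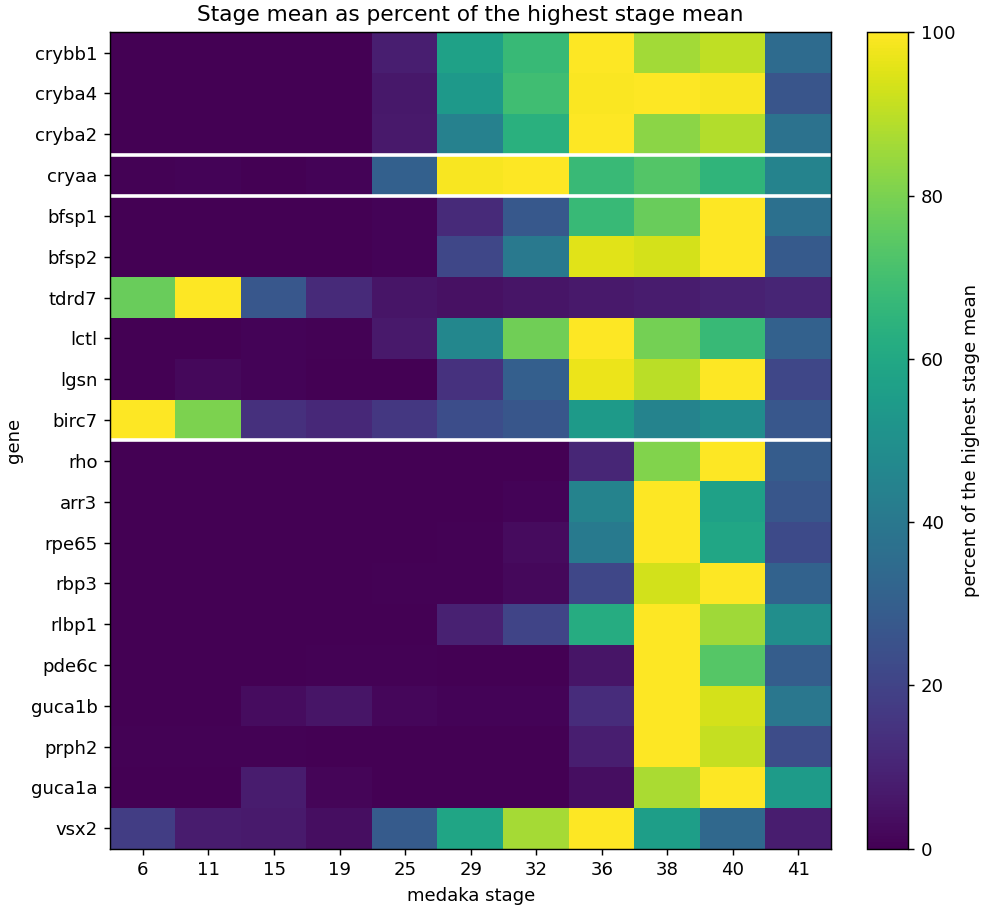
Stage means as a percentage of each gene's highest stage mean, with stages in columns and genes in rows; from the top, the 3 crystallin genes described here, cryaa, 6 lens fibre genes and 10 photoreceptor and retina genes, separated by white lines. The beta-crystallins reach 44% to 57.2% at stage 29, cryaa is near its highest there, and rho, arr3 and rpe65 stay near 0 up to stage 32.

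The summed level of the lens markers moved with the crystallins, although up to stage 32 it was mostly that of cryaa, itself a crystallin. Of 6 lens markers listed, cryaa, bfsp1 and bfsp2 were matched besides the 3 genes, and their summed level was 41.8 and 40.7 TPM at stage 25 and 1.07 and 1.74 TPM at stage 19. Of this sum, cryaa made up 39.7 and 39.4 TPM at stage 25, and the other markers were not called at that step, bfsp1 with a log2 change of 0.99 (adjusted p = 0.0665) and bfsp2 with 0.62 (adjusted p = 0.630). The sum of the 3 markers was 171 and 146 TPM at stage 29, of which cryaa made up 150 and 106 TPM. At stage 32 the sum was 193 and 191 TPM, of which cryaa made up 153 and 106 TPM. The sum was 206 and 270 TPM at stage 36, 271 and 275 TPM at stage 40 and 95.1 and 145 TPM at stage 41. The part of lens size in the crystallin changes was not tested.

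Of 6 photoreceptor markers listed, rho and arr3, the rod visual pigment and the cone arrestin, were matched, and both appeared later. Their sum was 0.0715 and 0.0160 TPM at stage 25, 0 and 0.690 TPM at stage 29, 789 and 504 TPM at stage 36 and 5935 and 3777 TPM at stage 40. Rhodopsin rose by a log2 change of 6.41 (adjusted p = 1.82e-07) at stage 36 against stage 32, a step at which no crystallin gene was called. It then fell to 1580 and 1132 TPM at stage 41, against 5663 and 3684 TPM at stage 40, a log2 change of -1.77 (adjusted p = 0.00431). Of 30 symbols of photoreceptor and retina genes, 10 were matched and tested. Among these 10 genes, 1 rose at stage 29 against stage 25, where 7.22% of all genes did. At stage 36 against stage 32, 8 rose, against 4.12% of all genes, and at stage 38 against stage 36, 6 rose, against 3.08%. At stage 41 against stage 40, 6 fell, against 9.71% of all genes. The pigment epithelium enzyme gene rpe65 was listed at 0.0932 and 0 TPM at stage 25 and had 132 and 189 TPM at stage 38. All 4 pigment epithelium markers were matched. Their sum was 51.0 and 63.0 TPM at stage 25, 300.1 and 375 TPM at stage 38, and 86.9 and 92.4 TPM at stage 41. At stage 25 the sum was almost wholly that of the markers dct and tyr, while rpe65 and rlbp1 were below 1 TPM in both libraries. Which cells of the whole embryo held the dct and tyr transcripts was not tested.

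Of 27 symbols of lens and eye field regulators, 20 were matched and 19 tested. At stage 19 against stage 15, the step before all 3 crystallin genes were called higher, cryba4 was called higher as well. Of the 19 regulators, 10 rose and none fell at this step, where 9.85% of all genes were called higher. Their median log2 change was 1.23, against 0.0076 for all genes. Rises of these regulators were not confined to this step. At stage 11 against stage 6, 7 rose and none fell, where 7.65% of all genes were called higher and 4.24% lower. At stage 15 against stage 11, 6 rose and 1 fell, where 15.1% of all genes were called higher and 20.1% lower. At stage 25 against stage 19, 3 rose and 1 fell, with a median of 0.44 against 0.15 for all genes, of which 7.18% were called higher and 1.79% lower. At stage 29 against stage 25, 3 rose and none fell, with a median of 0.62 against 0.081 for all genes. Of all genes, 7.22% were called higher and 1.04% lower at that step. The regulators of the highest level, meis2, tfap2a and dlx3, are transcription factors that are also used widely outside the eye. The meis2 gene had 53.0 and 39.3 TPM at stage 19 against 9.68 and 3.51 TPM at stage 15, a log2 change of 2.75 (adjusted p = 0.00186). Both tfap2a and dlx3 had their highest means at stage 15, with 191 ± 23.2 and 153 ± 11.4 TPM (SD, n = 2 each). By then no crystallin gene had exceeded 1 TPM in both libraries of a stage other than cryba4 at stage 11. The peak of tfap2a was not resolved, since its stage 15 libraries, at 208 and 175 TPM, overlapped those of stages 11 and 36. It had 225 and 51.7 TPM at stage 11, 97.8 and 60.0 TPM at stage 25 and 217 and 134 TPM at stage 36. At stage 41 against stage 40, 8 of the 19 fell and none rose, with a median of -0.92 against -0.22 for all genes, of which 9.71% were called lower.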

How the data were processed

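The deposited values were TPM per gene, which the authors made from strand-specific poly(A) libraries by alignment with HISAT2 2.1.0 and quantification with StringTie 1.3.3b on their own gene models, a union of long-read and Ensembl models. The genome build of these models is not given in the labels, and coordinates are those of the authors' models. Totals were 980148 to 998174 TPM in replicate 1 libraries and 1000000 in replicate 2 libraries. Read depth is unknown, and no counting interval can be given. With 2 libraries per stage, p-values reflect only how far these samples spread, which may be technical.

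The fit took 21179 genes that reached 1 TPM in 2 or more libraries. On log2(TPM + 1), limma 3.58.1 (R 4.3.3) estimated stage means with a variance trended on intensity and compared them for 10 adjacent steps and for stages 40 and 41 against stage 25. All 22 libraries shared 1 estimate of the spread. The p-values were Benjamini-Hochberg adjusted over all genes within a comparison. The fit was tested on simulated data. Alternatives changed the pseudocount, filter, scaling, variance trend, replicate block, libraries and smallest change.

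Symbols came from RefSeq genes of the assembly ASM223467v1, matched to 18091 models by a Jaccard index of spans of at least 0.5 on the same chromosome, of which 9389 had a symbol. The text names the 3 genes, the 3 genes of highest level in each list, 2 gene models on each side and the 5 most similar profiles, while lctl and birc7 were named after their values were seen. The members and lists were chosen with earlier results of these data known. Beta-crystallins form a gene family, and reads shared between similar copies could be split by the quantification. A deposited table of adult gonads was not used here, because its gene IDs follow another numbering than the gene models. A listed lens gene is not reported here. Promoter and protein sequences were not used here.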

Additional observations from a re-analysis of the deposited data

How the results depend on the processing

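Steps are written here as later/earlier stage. The 12 calls of the 3 genes at 25/19, 29/25, 40/25 and 41/25 were kept under each of the 13 to 14 alternatives run. At 41/40, cryba4 kept its call under all 14, with adjusted p up to 0.0268, while adjusted p reached 0.0624 for crybb1 and 0.0762 for cryba2. The earliest calls rest on a few TPM. The number of the 3 genes called was 1 at each of the first 3 steps and 0 at each with a pseudocount of 5 TPM, where the cryba4 changes were 0.55, -0.51 and 0.74. It was 0 to 1 without single libraries at 11/6 and 15/11, and 3 with a pseudocount of 0.1 TPM at 19/15.

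Directions turned only for changes not called. At 38/36, median-of-ratios scaling gave 0.073 for crybb1, 0.28 for cryba4 and 0.0032 for cryba2. At 40/38, cryba4 had 0.023 after quantile normalization, and without the d-rR / Qurt libraries crybb1 had -0.049 and cryba4 0.30. Without single libraries, crybb1 ranged from -0.36 to 0.041 at 15/11, from -0.0075 to 0.45 at 32/29 and from -0.049 to 0.19 at 40/38, cryba4 from -0.27 to 0.25 at 38/36 and from -0.37 to 0.30 at 40/38, and cryba2 from -0.11 to 0.32 at 40/38. The cause was not tested. The 3 genes first passed 10% of the highest stage mean at stage 29 and 90% at stage 36, and cryba4 passed 50% at stage 29 to 32 without single replicates. By Spearman's rho, 1, 2 and 1 of the 5 most similar genes were shared for crybb1, cryba4 and cryba2. A Jaccard index of 0.8 kept all 3 matches.

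The number of all genes called changed by over 1.5 times under several settings. A pseudocount of 5 TPM gave 1635 in place of 2517 at 11/6, 2214 in place of 3785 at 19/15, 810 of 1899 at 25/19, 835 of 1749 at 29/25, 5 of 1 at 32/29, 404 of 930 at 36/32, 517 of 935 at 38/36, 1439 of 3162 at 41/40, 5527 of 8970 at 40/25 and 5734 of 9477 at 41/25. A pseudocount of 0.1 TPM gave 3794 at 11/6, 552 at 36/32, 539 at 38/36 and 20 in place of 71 at 40/38. A filter at 5 TPM gave 2 at 32/29, and quantile normalization 1088 at 29/25 and 183 at 40/38. Without the d-rR / Qurt libraries the counts were 116 at 40/38 and 1263 at 41/40. Without single libraries they were 1044 to 4222 at 11/6, 974 to 1895 at 25/19, 611 to 1838 at 29/25, 0 to 236 at 32/29, 132 to 1296 at 36/32, 234 to 2281 at 38/36, 86 to 243 at 40/38 and 1975 to 2575 at 41/40. The share of higher calls was 50.6% at 41/40 after median-of-ratios scaling and 48.1% after quantile normalization, in place of 34.9%. Median-of-ratios scaling gave 88.9% for 69.8% at 38/36 and 71.4% for 53.5% at 41/25, and quantile normalization 58.4% for 80% at 25/19, 72.7% for 87.4% at 29/25, 74.6% for 93.9% at 36/32, 65.6% for 90.1% at 40/38, 45.2% for 62.9% at 40/25 and 43.6% for 53.5% at 41/25.

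With the replicate block the counts were 2 at 32/29, 1492 at 38/36 and 110 at 40/38, and no call of the 3 genes changed. Replicate differences correlated at 0.048 to 0.669 over 55 pairs of stages, with a median of 0.256 and 53 over 0.1. Most stages thus shared a replicate difference, but since not every pair passed 0.1, the block was kept out of the main values.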
